A study of Mus musculus with 4 samples.

Results

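Integrins and laminins were followed across 4 arrays of mouse colon, each carrying the pooled RNA of 1 group. The genes were selected by a pattern in their symbols, with no measured value in it: all integrin α and β subunits and all laminin α, β and γ chains that a non-control probe of the array names, each represented by the brightest of its probes. Of 51 such probes for 37 genes, 36 genes were well above background by the software of the scanner on at least 1 array and were kept, 25 integrins and 11 laminins, out of 22368 genes in all. The gene that was left out, Itgad, was below that level on all 4 arrays. Of the 36 genes, 33 were well above background on all 4 arrays, Itga2b and Itgb8 on 2, and Lamc3 on 1, so these 3 were kept only through the arrays on which they were higher.

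The mice carried either both copies of Pla2g3, the gene of a secreted phospholipase A2 (Pla2g3+/+), or were labelled Pla2g3-/-, that is, as lacking it, all male, 42 weeks old and of the B6.129 background at backcross generation 3. They received saline as vehicle or, as a colon carcinogen, azoxymethane (AOM), given into the peritoneum at 10 mg/kg once weekly for 6 weeks, and were killed 28 weeks after the last dose. The 4 groups are thus Pla2g3+/+ with vehicle, Pla2g3-/- with vehicle, Pla2g3+/+ after AOM and Pla2g3-/- after AOM, with 1 pool and 1 array in each. Each pool held RNA of 3 to 5 mice by the sample descriptions, or of 4 by another account. The tissue was descending colon, which the descriptions call colorectal cancer in the groups given AOM. Since each group has a single array, no spread within a group exists and no single difference below has a p-value. Since the RNA is that of whole tissue, fewer cells of a type cannot be told apart from less RNA per cell.

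Integrins are receptors of the cell surface, each made of an α and a β subunit, that tie the cytoskeleton to the extracellular matrix or to other cells. Laminins are trimers of an α, a β and a γ chain and form, with type IV collagen, nidogen and perlecan, the basement membrane under the epithelium and around smooth muscle cells, vessels and nerves. In the intestine the epithelium sits on laminins through the integrins that contain Itga6, Itga3, Itgb4 and Itgb1, muscle cells attach through Itga7 and Itga8, and leukocytes carry their own set, the Itgb2 integrins and the Itgae and Itga4 partners of Itgb7.

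The level of a gene on these arrays is that of a 60-base probe, and for Itgam the choice of probe decides the result. The array carries 3 Itgam probes, at chr7:135261755-135261814, chr7:135260275-135260334 and chr7:135212140-135212199 of mm9 on the plus strand. The first 30 bases of the brightest, which the rule selects, and the whole of the other two are shown, 5′ to 3′, because the brightest begins with a run of the dinucleotide CA, set in capitals, that the others lack.
Itgam, brightest probe: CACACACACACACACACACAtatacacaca
Itgam, middle probe: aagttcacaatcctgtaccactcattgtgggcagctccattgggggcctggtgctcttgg
Itgam, dimmest probe: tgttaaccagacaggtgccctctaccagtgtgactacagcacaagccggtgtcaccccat
The repeat spans 20 bases, and 160 of the 39429 probes hold a tandem repeat of a unit of 2 or 3 bases that is at least as long. The brightest probe of Itga6, at chr2:71694756-71694815 of mm9, holds a shorter one of 17 bases, in capitals in its bases 17 to 46, and 208 probes have a repeat of that length or more.
Itga6, brightest probe: gaggtcTTGTTGTTGTTGTTGTTctgacct
Among the probes of the other genes the longest repeat was 10 bases, in a second probe of Itga1. The exon or untranslated region under each probe was not assigned here.

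The values below are relative signals unless named otherwise: the deposited intensity over the 75th percentile of all probes on the array. That percentile was 646 and 649.8 on the vehicle arrays and 1309 and 1169 on the AOM arrays, and 64.8% to 69.4% of spots were well above background. Genes of colon epithelium were present on all 4 arrays: the 8 listed epithelial markers were well above background on each, and their relative signals summed to 579 in Pla2g3+/+ and 599.7 in the pool labelled Pla2g3-/- with vehicle, and to 370.4 and 563 after AOM. The targeted gene went against the labels. Its brightest probe had an intensity of 343 in Pla2g3+/+ and 426 in the pool labelled Pla2g3-/- with vehicle, and of 304 and 1632 after AOM, which is 1.23-fold and 6.01-fold higher relative signal in the pools labelled Pla2g3-/-. Where the deleted part of the gene lies relative to the probe is not given in the sources used here, so every direction between genotypes below follows the labels and is written as such.

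The integrin and laminin genes moved mainly with AOM, and with vehicle the genotypes differed at few of them. A gene was counted as past 2-fold, the threshold of the study, where its relative signals on a pair of arrays differed by more than that. In Pla2g3+/+ mice 20 of 35 genes with a value were over 2-fold higher after AOM and 3 were lower, whereas of all genes 15.1% were higher and 22.4% lower, 37.5% in all. In the pools labelled Pla2g3-/-, 14 of 35 were higher and 5 lower after AOM, against 9.65% and 15.1% of all genes, 24.8% in all. The median log2 ratio of AOM over vehicle was 1.11 over the integrin and laminin genes in Pla2g3+/+ and 0.76 in the other genotype, where the medians over all genes with a value were -0.17 and -0.08. Between the AOM pools, 5 of 36 genes were over 2-fold higher and 12 lower in the pool labelled Pla2g3-/-, against 15.1% and 12.9% of all genes, 28.0% in all. With vehicle, 2 of 34 were higher and 0 lower, against 1.92% and 1.32% of all genes, 3.24% in all. Itgb8, kept only through the arrays on which it was higher, is counted in all 4 comparisons, each time as a bound.

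**Figure D1:**
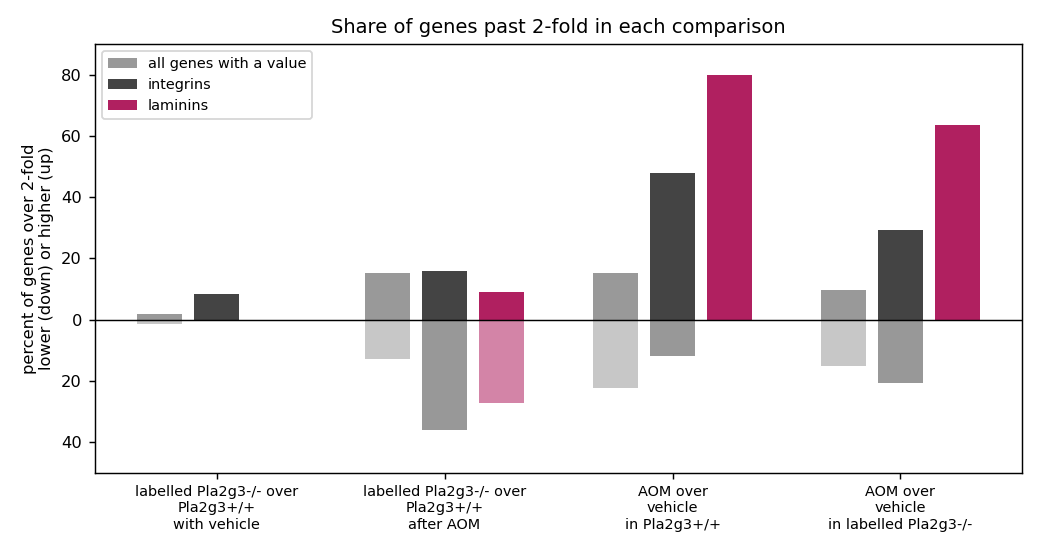
Percent of genes over 2-fold higher (upward bars) or over 2-fold lower (downward, paler bars) in each of the 4 comparisons, for all genes with a value (grey), the integrins (dark) and the laminins (magenta). In Pla2g3+/+ mice 8 of 10 laminins were higher after AOM and 0 lower. In the comparison of genotypes with vehicle 2 integrins, Itgb8 among them as a bound, and 0 laminins passed 2-fold.

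Most laminin chains, though not all, were over 2-fold higher after AOM. In Pla2g3+/+, 8 of 10 laminins with a value were higher and 0 lower, beside 15.1% and 22.4% of all genes, with a median log2 ratio of 2.79. In the pools labelled Pla2g3-/-, 7 of 11 were higher and 0 lower, beside 9.65% and 15.1% of all genes, with a median of 1.28. Lama3, Lama4, Lama5, Lamb3 and Lamc1 were among the chains past 2-fold in both genotypes. Whether the size of the AOM difference differs between genotypes has no test with these arrays.

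Of the α chains, Lama1 showed the greatest difference of the 36 genes with AOM in Pla2g3+/+. Lama1 is a chain of early embryonic basement membranes with a restricted distribution in the adult. Its relative signal was 0.119 in Pla2g3+/+ and 0.145 in the pool labelled Pla2g3-/- with vehicle, and 4.54 and 0.225 after AOM. The Pla2g3+/+ AOM pool alone was high, 38.2-fold above its vehicle pool and 20.1-fold above the AOM pool labelled Pla2g3-/-, which was 1.55-fold above its own vehicle pool. Lama5, the main α chain under adult epithelia and in vessels, followed the same order with both AOM pools above vehicle. It was 0.765 and 0.961 with vehicle in Pla2g3+/+ and the pool labelled Pla2g3-/-, and 11.48 and 2.33 after AOM. The log2 ratios of AOM over vehicle were 3.91 and 1.28, and the AOM pool labelled Pla2g3-/- was 4.92-fold below that of Pla2g3+/+.

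Lama3, the α chain of the laminin that anchors epithelial hemidesmosomes, was 0.405 in Pla2g3+/+ and 0.278 in the pool labelled Pla2g3-/- with vehicle, and 3.14 and 1.81 after AOM. Both AOM pools were high, 7.73-fold and 6.52-fold above vehicle, and its second probe gave log2 ratios of 2.86 and 2.42, close to the 2.95 and 2.70 of the first. Lama4, a chain of vessel and muscle basement membranes, was 0.360 and 0.420 with vehicle and 1.14 and 1.04 after AOM. Both AOM pools were thus above both vehicle pools for Lama3 and Lama4, and the genotypes differed by less than 2-fold under either treatment. Lama2, the main laminin α chain of muscle and peripheral nerve, stood apart. It was 0.318 in Pla2g3+/+ and 0.418 in the pool labelled Pla2g3-/- with vehicle, and 0.320 and 0.975 after AOM, so the AOM pool labelled Pla2g3-/- alone was high, 3.05-fold above that of Pla2g3+/+. Its second probe gave a log2 ratio between the AOM pools of 1.72, beside 1.61 for the first.

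Among the β chains, Lamb1, the partner of Lamc1 in most laminins, was 1.34 in Pla2g3+/+ and 1.57 in the pool labelled Pla2g3-/- with vehicle, and 9.87 and 3.13 after AOM. The Pla2g3+/+ AOM pool was 7.39-fold above vehicle and 3.15-fold above the other AOM pool, in which the ratio to vehicle was 1.99, just under the threshold. Lamb3, a partner of Lama3, was 2.84 and 3.13 with vehicle and 7.06 and 8.67 after AOM, 2.48-fold and 2.77-fold higher. Lamb2, found at synapses and in muscle and vessel basement membranes, did not pass 2-fold in any comparison, with ratios of AOM over vehicle of 1.60 and 1.66.

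Of the γ chains, Lamc1, that of most laminins, passed 2-fold with AOM in both genotypes. It was 0.767 in Pla2g3+/+ and 0.778 in the pool labelled Pla2g3-/- with vehicle, and 5.42 and 3.10 after AOM. The vehicle pools were within 1.02-fold of each other, and the AOM pools were above them by log2 ratios of 2.82 and 1.99. Lamc3 was well above background on the AOM array labelled Pla2g3-/- alone, at 0.0244, which was at least 1.95-fold above the other AOM array.

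The Wnt targets of colon tumors and the colonocyte markers, genes of absorptive surface cells, differed most from vehicle in the Pla2g3+/+ AOM pool. The Wnt targets were higher there, as Lama1, Lama5 and Lamb1 were, and the colonocyte markers were lower. The relative signals of the 7 Wnt targets summed to 5.16 in Pla2g3+/+ and 4.88 in the pool labelled Pla2g3-/- with vehicle, and to 56.4 and 4.25 after AOM, and 7 of 7 were over 2-fold higher with AOM in Pla2g3+/+ and over 2-fold lower in the other AOM pool than in it. Sp5 was not well above background in that pool. Between the pools labelled Pla2g3-/-, 0 of 7 Wnt targets were over 2-fold higher after AOM and 3 were lower, whereas Lama5 was 2.43-fold and Lamb1 1.99-fold higher. The 5 colonocyte markers on the array summed to 563 and 588 with vehicle and to 23.3 and 269.5 after AOM, with 5 of 5 over 2-fold lower after AOM in Pla2g3+/+ and 2 of 5 lower and 1 higher in the other genotype. The part of either cell population in the laminin values was not tested.

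**Figure D2:**
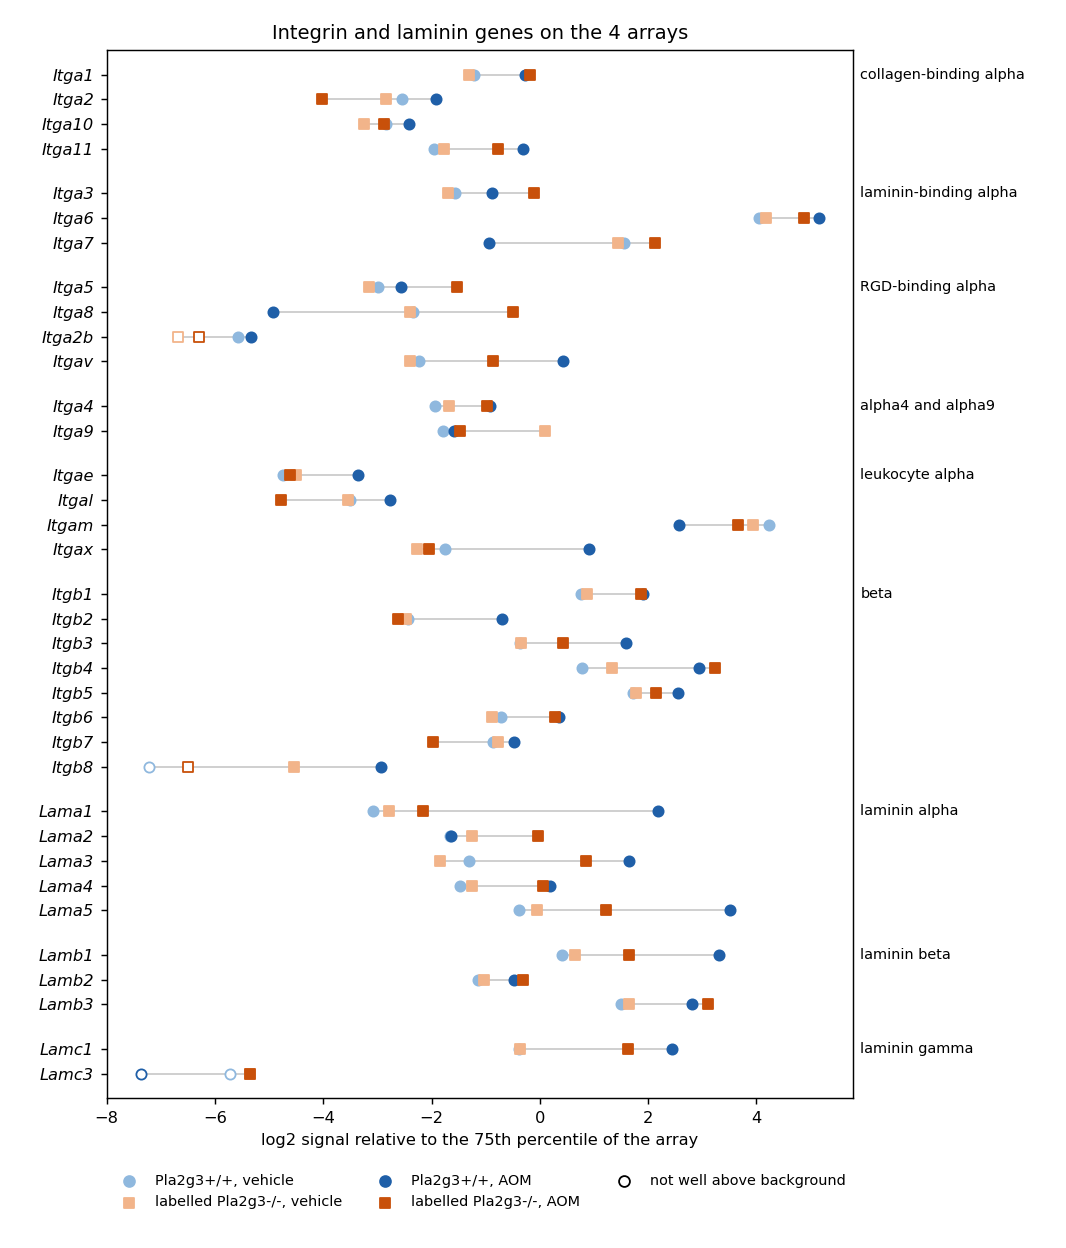
Log2 relative signal (0 is the 75th percentile of the array) of the integrin and laminin genes described, grouped by role, on the 4 arrays: circles for Pla2g3+/+, squares for pools labelled Pla2g3-/-, pale for vehicle and dark for AOM, open where the signal was not well above background. The vehicle symbols of most genes lie side by side, and the dark circles of Lama1, Lama5 and Itgax lie far to the right of the other 3 symbols, whereas those of Itga7 and Itga8 lie to the left.

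The laminin-binding integrins did not move as one group. Itgb4, the hemidesmosomal β subunit that pairs with Itga6, was 1.73 in Pla2g3+/+ and 2.53 in the pool labelled Pla2g3-/- with vehicle, and 7.72 and 9.46 after AOM. Both AOM pools were high, 4.47-fold and 3.74-fold above their vehicle pools. Itga6 was 16.5 and 18.2 with vehicle and 35.6 and 29.3 after AOM on the probe with the TTG repeat, 2.16-fold and 1.61-fold higher. Its other probe, without the repeat, was 2.79 and 2.03 with vehicle and 4.63 and 1.64 after AOM, with log2 ratios of 0.73 and -0.31, so the passage of 2-fold in Pla2g3+/+ held for one probe and a difference of -1.50 between the AOM pools appeared on the other. Itga3, an epithelial laminin receptor with Itgb1, was 0.337 and 0.309 with vehicle and 0.540 and 0.924 after AOM, 1.60-fold and 2.98-fold higher.

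Itga7, the main laminin receptor of muscle cells, went the other way in Pla2g3+/+. It was 2.94 in Pla2g3+/+ and 2.71 in the pool labelled Pla2g3-/- with vehicle, and 0.523 and 4.36 after AOM. The Pla2g3+/+ AOM pool alone was low, 5.62-fold below vehicle and 8.34-fold below the AOM pool labelled Pla2g3-/-. Itga8, which binds nephronectin and fibronectin and is known from smooth muscle and other mesenchymal cells, had the greatest ratio between the AOM pools of the 36 genes on the scale used here, close to that of Lama1, with log2 ratios of 4.42 and -4.33, and the order of the pair turns without scaling. It was 0.197 and 0.189 with vehicle, and 0.0330 in Pla2g3+/+ and 0.706 in the pool labelled Pla2g3-/- after AOM. Against vehicle it was 5.98-fold lower in the former and 3.73-fold higher in the latter, which left the AOM pools 21.4-fold apart.

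Smooth muscle markers moved with Itga7 and Itga8 in Pla2g3+/+. The 8 markers summed to 497.1 in Pla2g3+/+ and 523 in the pool labelled Pla2g3-/- with vehicle, and to 29.1 and 475.5 after AOM. In Pla2g3+/+, 8 of 8 were over 2-fold lower after AOM, and 8 of 8 were higher in the other AOM pool, while between the pools labelled Pla2g3-/- 1 of 8 was over 2-fold higher after AOM and 0 lower. Each was well above background on each array except Lmod1 in the Pla2g3+/+ AOM pool. The glial list, in which 4 of 5 genes were over 2-fold lower in the Pla2g3+/+ AOM pool than in either its vehicle pool or the other AOM pool, moved the same way, with sums of 1.64 and 1.90 with vehicle and 0.273 and 0.939 after AOM. The part of muscle or glia in the values of Itga7, Itga8 and Lama2 was not tested.

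The integrins of the αv group are receptors for fibronectin, vitronectin, osteopontin and latent TGF-β, and of the subunits Itgav and Itgb6 were over 2-fold higher after AOM in both genotypes. Itgav was 0.214 in Pla2g3+/+ and 0.190 in the pool labelled Pla2g3-/- with vehicle, and 1.35 and 0.551 after AOM. Both AOM pools were above vehicle, 6.28-fold and 2.91-fold, and Itgav was 2.44-fold lower in the AOM pool labelled Pla2g3-/- than in that of Pla2g3+/+. A second Itgav probe gave log2 ratios of 2.67 and 1.13 with AOM, beside 2.65 and 1.54. Of its β partners, Itgb3, known from platelets, osteoclasts and vessels, was 0.775 and 0.791 with vehicle and 3.00 and 1.34 after AOM, 3.87-fold and 1.69-fold higher. Itgb6, an epithelial subunit whose receptor activates latent TGF-β, was 0.606 and 0.541 with vehicle and 1.28 and 1.21 after AOM, so both genotypes were over 2-fold higher and the AOM pools were within 1.06-fold. Itgb5 did not pass 2-fold in any comparison: it was 3.32 and 3.43 with vehicle and 5.90 and 4.45 after AOM.

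Itgb8, the other subunit whose receptor activates latent TGF-β, was low on all arrays and gave bounds only. Its relative signal was 0.0427 in the vehicle pool labelled Pla2g3-/- and 0.132 in the Pla2g3+/+ AOM pool, and not well above background in the Pla2g3+/+ vehicle pool (0.00675) or the AOM pool labelled Pla2g3-/- (0.0111). For a bound, the dim array was given either the weakest signal it still called well above background or its own signal, whichever was greater. On that scale Itgb8 was at least 2.57-fold higher in the pool labelled Pla2g3-/- with vehicle and lower in it after AOM by a log2 ratio of -3.17 or beyond. With AOM it was at least 7.94-fold higher in Pla2g3+/+ and at least 2.92-fold lower in the other genotype.

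Itga5, the classical fibronectin receptor subunit, was 0.126 in Pla2g3+/+ and 0.112 in the pool labelled Pla2g3-/- with vehicle, and 0.168 and 0.347 after AOM. The AOM pool labelled Pla2g3-/- alone was high, 3.09-fold above its vehicle pool and 2.07-fold above the other AOM pool, and the latter log2 ratio, 1.05, became 0.88 without scaling and 0.74 with another background correction. Itgb1, the partner of most α subunits here, was 1.70 and 1.84 with vehicle and 3.73 and 3.67 after AOM. Its ratios of AOM over vehicle were 2.20 in Pla2g3+/+ and just under the threshold in the other genotype, and the AOM pools were within 1.02-fold. Itga2b, the platelet fibrinogen receptor subunit, was well above background in both Pla2g3+/+ pools, at 0.0210 and 0.0246, and in neither of the others.

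Of the collagen receptors, Itga1, Itga2 and Itga11 each passed 2-fold in at least 1 comparison. Itga1, a collagen receptor of muscle and T cells, was 0.431 in Pla2g3+/+ and 0.401 in the pool labelled Pla2g3-/- with vehicle, and 0.824 and 0.885 after AOM, 1.91-fold and 2.20-fold higher. Itga11, a collagen receptor of fibroblasts, was 0.259 and 0.293 with vehicle and 0.808 and 0.585 after AOM, 3.12-fold higher in Pla2g3+/+ and just under 2-fold in the other genotype. Fibroblast markers were higher after AOM as well: the 7 listed genes summed to 39.3 and 44.3 with vehicle and to 116 and 85.6 after AOM, with 4 of 7 over 2-fold higher in Pla2g3+/+ and 3 of 7 in the other genotype, and their part in the value of Itga11 was not tested. Itga2, a collagen and laminin receptor of epithelium and platelets, was 0.170 and 0.139 with vehicle and 0.266 and 0.0618 after AOM. The AOM pool labelled Pla2g3-/- alone was low, 2.26-fold below its vehicle pool and 4.30-fold below the Pla2g3+/+ AOM pool. Itga10 did not pass 2-fold in any comparison, with signals between 0.105 and 0.188.

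Among the leukocyte integrins, Itgax, Itgb2, Itgae and Itgal were each highest in the Pla2g3+/+ AOM pool. Itgax, the α subunit of dendritic cells and macrophages, was 0.297 in Pla2g3+/+ and 0.209 in the pool labelled Pla2g3-/- with vehicle, and 1.87 and 0.241 after AOM. Itgax was thus 6.30-fold higher after AOM in Pla2g3+/+ and 7.75-fold lower in the AOM pool labelled Pla2g3-/-. Itgb2, the β subunit that Itgal, Itgam and Itgax share, had the same order, with 0.185 and 0.179 with vehicle and 0.618 and 0.162 after AOM, 3.33-fold higher after AOM in Pla2g3+/+ and 3.82-fold lower in the other AOM pool. The 3 pools other than the Pla2g3+/+ AOM pool were within 2-fold of each other for both genes.

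Itgae, which with Itgb7 holds T cells in the epithelium through E-cadherin, was 0.0371 in Pla2g3+/+ and 0.0439 in the pool labelled Pla2g3-/- with vehicle, and 0.0971 and 0.0406 after AOM, 2.62-fold higher after AOM in Pla2g3+/+. Itgal, the α subunit of lymphocyte adhesion to Icam1, was 0.0876 and 0.0861 with vehicle and 0.147 and 0.0362 after AOM. Itgal was 4.05-fold lower in the AOM pool labelled Pla2g3-/- than in that of Pla2g3+/+ and 2.38-fold below its own vehicle pool. Of 2 other Itgal probes, one gave log2 ratios of -2.68 and -1.91 for these comparisons and the other -0.65 and 0.27, so the direction against vehicle turned on the latter. The ratios of Itgae and Itgal between the AOM pools did not pass 2-fold after another background correction, with log2 values of -0.45 and -0.73.

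Itgb7, the gut-homing subunit that pairs with Itga4 and Itgae, was 0.549 in Pla2g3+/+ and 0.586 in the pool labelled Pla2g3-/- with vehicle, and 0.715 and 0.254 after AOM. The AOM pool labelled Pla2g3-/- alone was low, 2.31-fold below its vehicle pool and 2.81-fold below the other AOM pool. Itga4, its partner on lymphocytes, did not share that order: it was 0.260 and 0.312 with vehicle and 0.530 and 0.507 after AOM, 2.04-fold and 1.63-fold higher. A second, dimmer Itga4 probe was well above background on the AOM arrays alone.

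The immune cell lists did not move as one. The 8 macrophage markers summed to 11.0 in Pla2g3+/+ and 14.1 in the pool labelled Pla2g3-/- with vehicle, and to 23.2 and 10.6 after AOM. Of the 7 with a value, 6 were over 2-fold higher after AOM in Pla2g3+/+, 6 were lower in the other AOM pool, and Cd163 was below background on all 4 arrays. The 9 neutrophil markers summed to 55.6 and 54.6 with vehicle and to 93.5 and 62.2 after AOM, with 4 of 8 over 2-fold higher after AOM in Pla2g3+/+ and 0 lower, and Ngp below background on each array. No T or B cell marker was over 2-fold higher in Pla2g3+/+ with AOM, although the T cell marker Cd5 was close to the threshold, at 1.93-fold. The 8 T cell markers summed to 6.08 and 5.84 with vehicle and to 4.16 and 1.995 after AOM, with 0 of 8 over 2-fold higher and 1 lower after AOM in Pla2g3+/+. The 5 B cell markers summed to 2.78 and 2.19 with vehicle and to 0.957 and 0.176 after AOM, with 0 of 5 higher and 3 lower after AOM in Pla2g3+/+. Dendritic cell markers had 0 of 3 past 2-fold there, with sums of 0.169 and 0.144 with vehicle and 0.172 and 0.0602 after AOM and Xcr1 below background on each array. Between the AOM pools, 6 of 8 T cell, 4 of 5 B cell, 2 of 3 dendritic cell and 4 of 8 neutrophil markers were over 2-fold lower in that labelled Pla2g3-/-, where Cd8a and Cd8b1 were among the markers not well above background. In the same comparison 1 B cell marker, Pax5, as a bound, and 1 neutrophil marker, Ly6g, were over 2-fold higher. Of all genes, 12.9% were lower and 15.1% higher. The part of immune cells in the leukocyte integrin values was not tested.

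Itgam, the α subunit of neutrophils and macrophages that pairs with Itgb2, gave a different answer on each of its probes. The probe with the CA repeat gave 18.7 for Pla2g3+/+ and 15.4 for the other genotype with vehicle, and 5.95 and 12.6 after AOM. By it Itgam was 3.14-fold lower after AOM in Pla2g3+/+ and 2.12-fold higher in the other AOM pool, opposite to Itgb2 and Itgax. The middle probe was 0.0612 and 0.0604 with vehicle and 0.178 and 0.1203 after AOM, which gives a log2 ratio of 1.54 for AOM over vehicle in Pla2g3+/+ and -0.56 between the AOM pools. The dimmest probe was 0.0434 and 0.0667 with vehicle and 0.0426 and 0.0726 after AOM, with log2 ratios of -0.03 and 0.77 for the same comparisons. The 3 probes thus disagree on the direction of Itgam after AOM, and the counts given above include the probe with the repeat.

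Other probes with a repeat of at least 20 bases were bright as well and moved with the AOM pools. The median intensity of those 160 probes was 10637 in Pla2g3+/+ and 10370 in the pool labelled Pla2g3-/- with vehicle, and 13469 and 24838 after AOM, where the medians of all 39429 probes were 62.3, 61.3, 126 and 110. Their median log2 ratio was -0.81 for AOM over vehicle in Pla2g3+/+, with quartiles of -1.37 and 0.48, and 70 of 160 were over 2-fold lower and 0 higher. Between the AOM pools it was 0.47, with quartiles of -0.44 and 1.92, and 76 of 160 were over 2-fold higher and 1 lower in the pool labelled Pla2g3-/-. With the brightest probe that holds no repeat of 14 bases or more, a choice made after these values were seen, 22 genes of this set passed 2-fold with AOM in Pla2g3+/+ (20 higher, 2 lower) and 17 between the AOM pools (4 higher, 13 lower). Of all genes, 37.5% and 28% passed 2-fold with that choice.

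**Figure D3:**
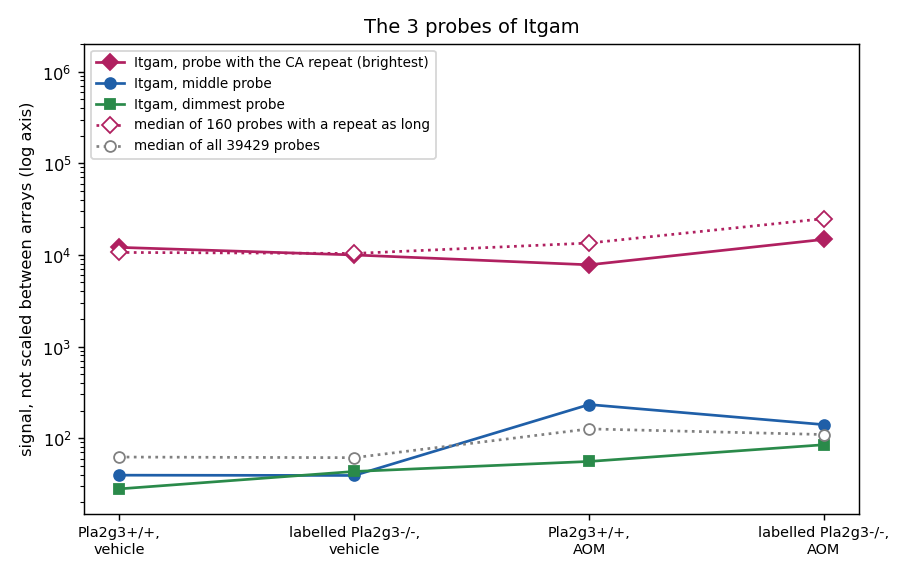
Intensity, not scaled between arrays and on a log axis, of the 3 Itgam probes on the 4 arrays (filled symbols), with the median of the 160 probes that hold a repeat of at least 20 bases and of all 39429 probes (open symbols, dotted lines). Between the Pla2g3+/+ pools the probe with the CA repeat fell from 12082 to 7794 while the middle probe went from 39.5 to 233.

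Genes that work with the integrins and laminins were taken from 4 lists. Of 9 basement membrane partners and laminin receptors, 6 were over 2-fold higher after AOM and 0 lower in each genotype, beside 15.1% of all genes higher in Pla2g3+/+ and 9.65% in the pools labelled Pla2g3-/-. Nid1, which bridges laminin and type IV collagen, was 0.698 in Pla2g3+/+ and 0.887 in the pool labelled Pla2g3-/- with vehicle, and 3.99 and 2.33 after AOM. Col4a1, a chain of type IV collagen, was 0.569 and 0.561 with vehicle and 5.06 and 1.48 after AOM. Between the AOM pools 1 of 9 was over 2-fold higher and 3 lower in that labelled Pla2g3-/-: Ntn4 was higher by 1.19 on the log2 scale, and Nid2, Col4a1 and Col4a2 had log2 ratios of -1.69, -1.78 and -1.71.

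Of 15 integrin ligands, 11 were over 2-fold higher and 1 lower after AOM in Pla2g3+/+, where 37.5% of all genes passed 2-fold. In the pools labelled Pla2g3-/- 4 of 14 were higher and 3 lower, where 24.8% of all genes passed, and the difference between the genotypes was not tested. Between the AOM pools 11 of 15 were lower in that labelled Pla2g3-/- and 1 higher, beside 12.9% and 15.1% of all genes. Spp1, which encodes osteopontin, a ligand of the αv integrins, was 1.53 in the Pla2g3+/+ AOM pool and not well above background in the other 3, a log2 ratio between the AOM pools of -6.70 or beyond. Npnt, the ligand of Itga8, was 0.113 in the Pla2g3+/+ AOM pool and below background in the other AOM pool, with a bound of -2.94, opposite in order to Itga8. Icam1, the ligand of Itgal, Itgam and Itgb2, was 0.0339 and 0.0511 with vehicle and 0.298 and 0.0497 after AOM. Madcam1, the ligand of the receptor of Itga4 and Itgb7 on gut vessels, was 0.432 and 0.391 with vehicle and 0.831 and 0.0910 after AOM, and Thbs1 and Tgfb1 had log2 ratios of -2.36 and -2.01 between the AOM pools.

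Of 20 genes of integrin activation and focal adhesion, 2 were over 2-fold higher and 2 lower in the AOM pool labelled Pla2g3-/-, beside the 28.0% of all genes past 2-fold there. All 4 also passed 4-fold. Lims2, an adaptor of integrin-linked kinase, was 3.92 in Pla2g3+/+ and 5.17 in the pool labelled Pla2g3-/- with vehicle, and 0.390 and 5.51 after AOM, and Tns1, a tensin that binds integrin tails, was 9.68 and 8.93 with vehicle and 1.56 and 14.7 after AOM. Both were low in the Pla2g3+/+ AOM pool, as Itga7 was. Fermt3, the kindlin of blood cells, and Parvg, the parvin of blood cells, had log2 ratios of -2.33 and -2.96 between the AOM pools, in the direction of Itgb2. The general talin, vinculin and integrin-linked kinase genes Tln1, Vcl and Ilk differed between the AOM pools by log2 ratios of 0.42, 0.50 and 0.16.

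Of 5 hemidesmosome and tetraspanin genes, 3 were over 2-fold higher and 0 lower in the AOM pool labelled Pla2g3-/-, beside 15.1% and 12.9% of all genes, and Itgb4 differed by 0.29 on the log2 scale. Col17a1, the transmembrane collagen that binds Itgb4, was below background with vehicle and 0.0440 in Pla2g3+/+ and 0.588 in the other pool after AOM. Plec and Dst, which link Itgb4 to keratin filaments, had log2 ratios of 1.06 and 1.79. Squamous epithelial markers summed to 6.47 in Pla2g3+/+ and 5.79 in the pool labelled Pla2g3-/- with vehicle, and to 6.83 and 24.1 after AOM. Between the AOM pools 1 of 7 was over 2-fold higher, Krt5, and 1 lower, Krt4, as a bound. Krt5 was 0.0266 in Pla2g3+/+ and 15.3 in the pool labelled Pla2g3-/- after AOM, most of the sum of 24.1. Krt1 and Ivl were below background on all 4 arrays. The part of squamous epithelium in these values was not tested.

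With vehicle, the genotypes differed past 2-fold at Itga9 and, as a bound, at Itgb8. The value of Itgb8 rests on an intensity of 27.8 against an array where it was not well above background. Itgb8 did not pass with another background correction (log2 ratio 0.49). Where both arrays had to be well above background, Itgb8 got no value by that rule, which left Itga9 alone. Itga9, a receptor for tenascin-C, Vcam1 and osteopontin known from lymphatic endothelium and muscle, was 0.289 in Pla2g3+/+ and 1.07 in the pool labelled Pla2g3-/- with vehicle, and 0.334 and 0.361 after AOM. The vehicle pool labelled Pla2g3-/- alone was high, 3.70-fold above Pla2g3+/+ and 2.96-fold above the AOM pool of the same label. In that vehicle pool pancreatic acinar markers were also high: 9 of 9 were over 2-fold higher than in Pla2g3+/+, and their relative signals summed to 47.2, against 0.312 in Pla2g3+/+ and 0.0950 and 0.133 after AOM. Their part in the value of Itga9 was not tested. The other 32 genes with a value lay between log2 ratios of -0.54, for Lama3, and 0.55, for Itgb4, with a median over the 34 of 0.04. Of the lists of partner genes, Bcam, a laminin receptor of the immunoglobulin family, was 0.233 in Pla2g3+/+ and 0.0973 in the pool labelled Pla2g3-/-.

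Across both genotypes, 9 genes were over 2-fold higher with AOM in each, among them Itgav, Itgb4, Itgb6, Lama3, Lama4, Lama5, Lamb3 and Lamc1. A further 11 passed 2-fold upward in Pla2g3+/+ and not in the other genotype, and 5, Itga1, Itga3, Itga5, Itga8 and Lama2, the reverse. Itgb1, Itga11 and Lamb1 are among the 11 although their ratios in the other genotype were 1.99 or closer to 2, so the count depends on the exact threshold. Itga1 is among the 5 by the probe used, whereas its other probe gave 2.01-fold in Pla2g3+/+ and 1.94-fold in the other genotype. Lower after AOM in Pla2g3+/+ were Itga7, Itga8 and Itgam, and in the pools labelled Pla2g3-/- Itga2, Itga9, Itgal, Itgb7 and Itgb8. Of the 36 genes, 31 passed 2-fold in at least 1 comparison, and Itga10, Itga2b, Itgb5, Lamb2 and Lamc3 in none. The share of all genes with each of these patterns was not computed. With AOM, 37.5% of all genes passed 2-fold in Pla2g3+/+ and 24.8% in the pools labelled Pla2g3-/-.

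**Figure D4:**
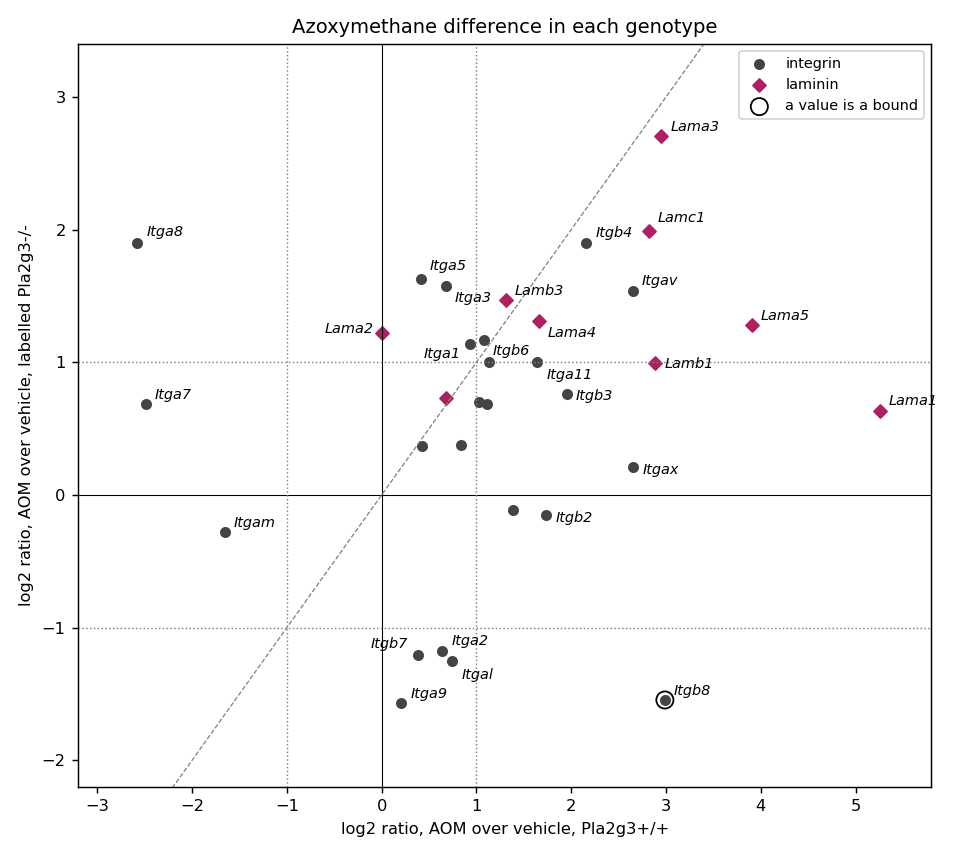
Log2 ratio of AOM over vehicle in Pla2g3+/+ (horizontal axis) and in the pools labelled Pla2g3-/- (vertical axis) for the integrins (circles) and laminins (diamonds) described that have a value in both. Dotted lines mark 2-fold, the dashed line marks equal ratios, and the ringed gene, Itgb8, is a bound on both axes. Lama1 lies at 5.26 and 0.63, Lama3 at 2.95 and 2.70, and Itga8 at -2.58 and 1.90.

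A test was possible only for a difference alike in both genotypes or under both treatments. limma fitted treatment and genotype to the 4 arrays, which left 1 residual degree of freedom, and at a Benjamini-Hochberg adjusted p under 0.05 called 0 of 17876 genes (0.0%) for AOM and 0 (0.0%) for genotype. For AOM, 11 of the 36 integrin and laminin genes had an unadjusted p under 0.05, beside 2409 of all genes, and each had an adjusted p of 0.368. Lama3 had the smallest unadjusted p of the 36 in this limma fit, 0.0038, with a log2 difference of 2.83 ± 0.31 (SE), and Itgb4, with the next smallest, had 2.03 ± 0.31, each higher in both genotypes. For genotype 1 of the 36 had an unadjusted p under 0.05, Itga2b, beside 215 of all genes. Itga2b was not well above background in either pool labelled Pla2g3-/- and was kept only through the Pla2g3+/+ pools. The fit used its signals in the pools labelled Pla2g3-/- as they stood, with no bound. The model takes a difference that depends on genotype as error, so it says nothing of Lama1 or Itga8.

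The probes give one measure of error within an array. Spots of the same probe had a median SD of 0.058 to 0.066 on the log2 scale. Of the 12 genes with several probes, the log2 ratios of the probe used and another differed by a median of 0.18 to 0.40 in the 4 comparisons, and by at most 1.52, for Itgal, when Itgam is left aside. Neither covers the spread between mice, since the RNA of the mice in a group was pooled before hybridization.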

How the data were processed

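RNA from 4 pools of mouse colon, 27.7 ng each, was labelled with Cy3 and hybridized to Whole Mouse Genome microarrays (1 color, 1 slide). The intensity that the authors deposited for each spot comes from Feature Extraction 11.5.1.1, after background subtraction and spatial detrending, with no scaling between arrays. A deposited p-value sets each spot against its background, and the call "well above background" is that of the software. The table of processed values that the authors deposited is a ratio, the intensity over the 75th percentile of the array. It was checked against each array and used as an alternative. Groups were taken from the sample labels.

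After removal of controls and outlier spots, replicate spots were averaged on the log2 scale, leaving 39429 probes. No spot was saturated. Of these, 31372 probes took a gene name from the RefSeq table for GRCm38.p6, which gave names and no positions. Probe positions come from the array headers and refer to mm9. The brightest of several probes by mean log2 intensity stood for a gene. The 75th percentile of each array was subtracted on the log2 scale. Where 1 side of a comparison was not well above background, the difference is a bound and is written "at least", and a gene dim on both sides got no value.

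The genes and the lists of roles, partners and markers were chosen with earlier results of these data known. Signals are given for genes past 2-fold in at least 1 comparison and the brightest gene of each role. Partner genes past 4-fold between the AOM pools are given by signals or by log2 ratio alone. Other partner genes named were chosen after their values were seen. A single gene of the set enters the counts and medians and is not reported here by itself. Likeness between genes is not given, because a correlation over 4 arrays is too short. An additive model of treatment and genotype was fitted with limma 3.58.1 (R 4.3.3). The model was also run on data simulated for the AOM effect over 17876 genes, with noise of SD 0.3 on the log2 scale. With 200 genes changed 16-fold alike in both genotypes, it recovered 100% and called 14 unchanged genes. No simulated difference depended on genotype, so this recovery does not carry over to the differences on these arrays. Python 3.11.15, pandas 2.3.3, numpy 2.4.6 and matplotlib 3.10.9 were used.

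The values were recomputed without scaling, with median scaling, with quantile normalization, with normexp (offset 50) before it, with both arrays required to be well above background, with no filter, with the mean over probes, at 1.5-fold and 4-fold, from the deposited table, and with an intensity trend in limma. The use of each other probe and the brightest probe without a tandem repeat of 14 bases or more were added after seeing the data.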

Additional observations from a re-analysis of the deposited data

Results flagged for a closer look

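Genes that passed 2-fold in opposite directions in the same contrast are set out here. Each difference between contrasts rests on 1 array per group and was not tested. Itgb8 had a log2 ratio of the pool labelled Pla2g3-/- over Pla2g3+/+ of 1.36 with vehicle and -3.17 after AOM, and a log2 ratio of AOM over vehicle of 2.99 in Pla2g3+/+ and -1.55 in the pools labelled Pla2g3-/-, all of them bounds from intensities of 4.36 to 172. Itga8 had a log2 ratio of AOM over vehicle of -2.58 in Pla2g3+/+ and 1.90 in the pools labelled Pla2g3-/-, well above background on all 4 arrays.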

How the results depend on the processing

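Counts of integrin and laminin genes past 2-fold were recomputed under each alternative, and their median log2 ratios under those that do not change the threshold. The limma calls were recomputed under the normalizations and the intensity trend. Of 90 values, 82 stayed within the limits for an equal value. For a count that was a total within 1.5-fold, whichever way the genes moved, and for a median a log2 difference under 0.355. The limma counts were 0 throughout. At 4-fold the counts were 0 with vehicle, 8 between the AOM pools (2 higher, 6 lower), and 12 and 1 with AOM in Pla2g3+/+ and in the pools labelled Pla2g3-/-. The counts were out of 34, 36, 35 and 35 genes with a value. Of all genes, 1.1%, 10.6%, 12.2% and 4.47% passed 4-fold in the same order. The count with vehicle was 1 with normexp and quantile normalization. It was also 1 where both arrays had to be well above background, a setting that gives Itgb8 no value. Of all genes, 1.18% and 1.71% passed 2-fold in those settings. Without scaling, the median of all genes with AOM moved from -0.17 to 0.87 in Pla2g3+/+ and from -0.08 to 0.76 in the other genotype, and that of the integrins and laminins moved with it to 2.13 and 1.61. The split in Pla2g3+/+ was then 32 higher and 2 lower, beside 20 and 3, where 52.3% of all genes passed 2-fold. In the pools labelled Pla2g3-/- it was 26 higher and 0 lower, beside 14 and 5, where 41.8% of all genes passed. With normexp it was 13 higher and 1 lower in the latter, where 10.4% of all genes passed. Of 1158 values of single genes, 124 came from the deposited table and repeat the main ones, and 5 of the 1158 reversed. Itgam turned to -0.56 between the AOM pools and to 1.54 for AOM over vehicle in Pla2g3+/+ without repeat-bearing probes, which is its middle probe, and Itgal turned to 0.27 for AOM over vehicle in the pools labelled Pla2g3-/- on another probe. A further 35 fell below the threshold and 28 passed it. The lower bound of Itgb8 with vehicle became 0.49 with normexp. Beyond the choice of probe, the cause was not tested. limma called 0 genes under the alternatives it was run with, with 10 to 23 of the 36 at an unadjusted p under 0.05 for AOM and the smallest adjusted p between 0.165 and 0.412. Precision is limited by the number of arrays, and signals near background limit Itgb8, Itga2b and Lamc3. No paired analysis was possible because each group has 1 array.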
